A study of Homo sapiens with 6 samples.

Results

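The integrated stress response is described here through 32 genes: ATF4, the transcription factor at its centre, factors that act beside it, and targets that supply amino acids, tune translation or decide cell fate. The genes were given by name, and all 32 were found among the 25706 rows of the deposited gene table, each in a single row. Of the 32, 29 passed the filter on low counts and were tested; CBS, ALDH1L2 and FGF21 did not pass. Messenger RNA was captured by its poly(A) tail and sequenced from MDA-MB-231, an established triple-negative breast cancer line. The first group has 3 libraries of MDA-MB-231 cells that overexpress tsRNA-Gly-5-0006, a fragment of a tRNA for glycine, and the second has 3 libraries of MDA-MB-231 cells labelled only as control. The labels do not say how the fragment was overexpressed, what the control cells carry, or whether the libraries of a group came from separate cultures; if they did not, the spread behind the p-values may be technical. The question addressed is whether mRNAs of the response stand at other levels in cells with the fragment than in control cells.

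In the integrated stress response, kinases that sense amino acid shortage, unfolded protein, viral RNA or heme shortage phosphorylate the initiation factor eIF2. General translation then slows, while mRNAs with upstream open reading frames, above all that of ATF4, are translated more. ATF4 pairs with C/EBP family proteins and drives genes for amino acid import, serine and asparagine synthesis and tRNA charging, and also genes that restore translation or promote death. Because ATF4 is controlled largely at translation, its mRNA level does not report the amount of its protein.

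No gene of the response was called between overexpressing and control cells. Of the 29 tested genes, 0 passed edgeR's quasi-likelihood test at an adjusted p under 0.05, against 0% of all 15951 genes tested (0 genes), and 0 passed with DESeq2, which called 14 genes or 0.0799% of those it gave an adjusted p. At an unadjusted p under 0.05 edgeR had 1 of the 29, PPP1R15B, against 3.83% of all genes tested. Values above 0 were found for 16 of the 29 log2 fold changes (overexpression over control), against 54.8% of all genes. With upper-quartile scaling in place of the main TMM scaling, 13 of the 29 were above 0. The median over all genes was then -0.01, so the 54.8% is not the background of that count. The median log2 fold change was 0.03 over the 29 genes and 0.02 over all genes tested; without overexpression library 1 the medians were 0.01 and 0.01. The 95% interval lay inside 2-fold to either side for 24 of the 29, where 64.3% of all genes had such an interval.

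The letters that ATF4 dimers are known to bind were looked for in the promoters of these genes, and the windows that hold them are shown first because they are the part of the response written in the DNA. The motif searched was TGATGNAA, the core of the C/EBP-ATF response element, on both strands (reverse complement TTNCATCA), in RefSeq promoters of build GRCh38.p14 that span 250 bases before to 50 bases after each annotated start. Promoters were matched by symbol for 27 of the 32 genes, and those of SHMT2, NUPR1, SLC7A11, PSPH and ALDH1L2 were not used here. The motif was in a promoter of 9 of these 27 (33.3%), against 4.46% of 27305 symbols, and its stricter form TGATGCAA (reverse complement TTGCATCA, contained in the first) was in 6 (22.2%), against 1.08%. The genes were listed as the response and its ATF4 targets, so a share above that of all symbols was built into the list. It is not a result of these data. An annotated start need not be the outer end of the gene's row. The windows of SLC1A4, CHAC1, CEBPG and SLC1A5 lie inside the coordinates of their rows. The 7 windows whose match begins before the annotated start used are given 5′ to 3′ on the gene's strand, with the matched letters in capitals.
PPP1R15B, chr1:204412001-204412067, minus strand, match from -227: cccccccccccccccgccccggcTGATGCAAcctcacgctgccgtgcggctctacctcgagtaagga
SLC1A4, chr2:64989356-64989418, plus strand, match from -7: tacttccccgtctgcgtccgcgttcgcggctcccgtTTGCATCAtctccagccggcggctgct
ASNS, chr7:97872433-97872512, minus strand, match from -68: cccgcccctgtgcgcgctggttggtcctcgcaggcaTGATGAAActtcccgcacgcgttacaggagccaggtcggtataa
CHAC1, chr15:40953226-40953305, plus strand, match from -209: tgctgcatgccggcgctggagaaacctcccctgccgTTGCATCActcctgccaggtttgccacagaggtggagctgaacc
CEBPG, chr19:33374035-33374114, plus strand, match from -42: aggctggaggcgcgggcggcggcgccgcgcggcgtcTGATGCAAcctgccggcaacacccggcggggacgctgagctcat
SLC1A5, chr19:46784868-46784947, minus strand, match from -97: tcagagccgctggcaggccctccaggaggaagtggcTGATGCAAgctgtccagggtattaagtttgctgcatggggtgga
FGF21, chr19:48755434-48755513, plus strand, match from -54: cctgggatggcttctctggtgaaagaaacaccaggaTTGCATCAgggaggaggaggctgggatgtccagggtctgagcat
In SLC7A1 and SLC3A2 the match begins after the start, at 8 and 38. PPP1R15A holds the palindrome TGACGTCA, the cyclic AMP response element that ATF family factors also bind, which 2.25% of symbols have:
PPP1R15A, chr19:48872327-48872406, plus strand, match from -58: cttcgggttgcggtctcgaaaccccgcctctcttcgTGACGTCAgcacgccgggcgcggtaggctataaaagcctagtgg
The window of PPP1R15A also lies inside the coordinates of its row. A match is a description of these letters and not of binding.

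Among the 8 tested genes with TGATGNAA in a promoter, 4 had a log2 fold change above 0 and the median was 0.01; for the 17 tested genes whose promoters lacked it the median was 0.04. Their values lay on both sides of 0, from ASNS at -0.24 (-0.19 without overexpression 1) to PPP1R15B at 0.92 (0.29 without overexpression 1).

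The 6 libraries held 58870830 to 73126731 counts in overexpressing and 54371226 to 74586916 in control cells. The deposited counts are treated as estimates, and no counting interval is attached to them. Markers of the line were present in all libraries, at unequal levels. VIM, a mesenchymal filament, was at 365 to 460 FPKM in overexpressing and 389 to 455 FPKM in control cells. CD44 and AXL were at 34.4 to 65.4 FPKM in overexpressing and 35.1 to 47.6 FPKM in control cells, both highest in overexpression 1. CAV1 had 50.5, 24.3 and 18.9 FPKM in overexpressing and 22.3, 23.8 and 19.6 FPKM in control cells. EGFR was low, at 0.580 to 0.849 FPKM in overexpressing and 0.637 to 0.783 FPKM in control cells. Of 5 markers looked for as low, ESR1 had no row in the deposited gene table, and PGR and CDH1 were at most 0.0424 FPKM in any library. EPCAM was at 0.220 to 0.283 FPKM in overexpressing and 0.0898 to 0.233 FPKM in control cells. GATA3, at 0.527 to 0.909 and 0.555 to 0.840 FPKM, stood at a level near that of EGFR. The luminal keratins KRT8, KRT18 and KRT19 were abundant, at 492 to 2505 FPKM in overexpressing and 482 to 2163 FPKM in control cells. Of the basal markers, KRT14 had 1.58 FPKM in overexpression 1 and 0.0284 to 0.221 FPKM in the other libraries. KRT5 and TP63 were at most 0.0460 FPKM in any library. Of 9 leukocyte and endothelial markers looked for, 8 had a row. CD14 had 13.1 to 16.7 FPKM in overexpressing and 13.0 to 16.6 FPKM in control cells. CD68 had 10.8 to 14.3 FPKM in overexpressing and 15.4 to 19.1 FPKM in control cells. The log2 of CD68 was -0.46 (unadjusted p 0.0043 and adjusted p 0.994 by edgeR), or -0.52 without overexpression 1. Other markers of that list were at most 0.153 FPKM in any library. Overexpression library 1 stood apart: the 13 fibroblast markers found of 14 looked for summed to 151 CPM (counts scaled to library size) in overexpression 1, 13.8 and 10.9 CPM in overexpression 2 and 3, and 13.1 to 16.2 CPM in control cells. Members of the fibroblast list differed: COL3A1, DCN and FAP were listed at 0 in all 5 other libraries. COL1A1, COL1A2, COL6A3 and MMP2 were lower there but above 0 in each. PDGFRB and ACTA2 differed little, with PDGFRB at 0.933 FPKM in overexpression 1 and 0.551 to 0.832 FPKM in the others. ACTA2 had 0.622 FPKM in overexpression 1 and 0.471 to 0.595 FPKM in the others. In bulk RNA a smaller number of cells of a type and less RNA per cell cannot be told apart. That library also deviated with the GC content of transcripts, and others did so less strongly, as given below. The log2 values of the genes named below are given with and without overexpression 1.

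The genes spanned almost the whole range of expression, and most were well measured. FPKM, fragments scaled to transcript length and to library size, allows levels to be compared between genes. Mean FPKM over the 6 libraries was at least 10 for 15 of the 32 genes, between 1 and 10 for 8 and under 1 for 9. DDIT4, an inhibitor of the growth kinase mTORC1, stood highest with a mean of 304 FPKM, and CEBPB, a C/EBP transcription factor, followed with 183 FPKM. SHMT2, SLC3A2, ATF4, SLC1A5 and PPP1R15A lay between 61.8 and 90.4 FPKM. At the low end STC2, FGF21, ALDH1L2 and CBS had means of 0.0830 FPKM or less.

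**Figure D1:**
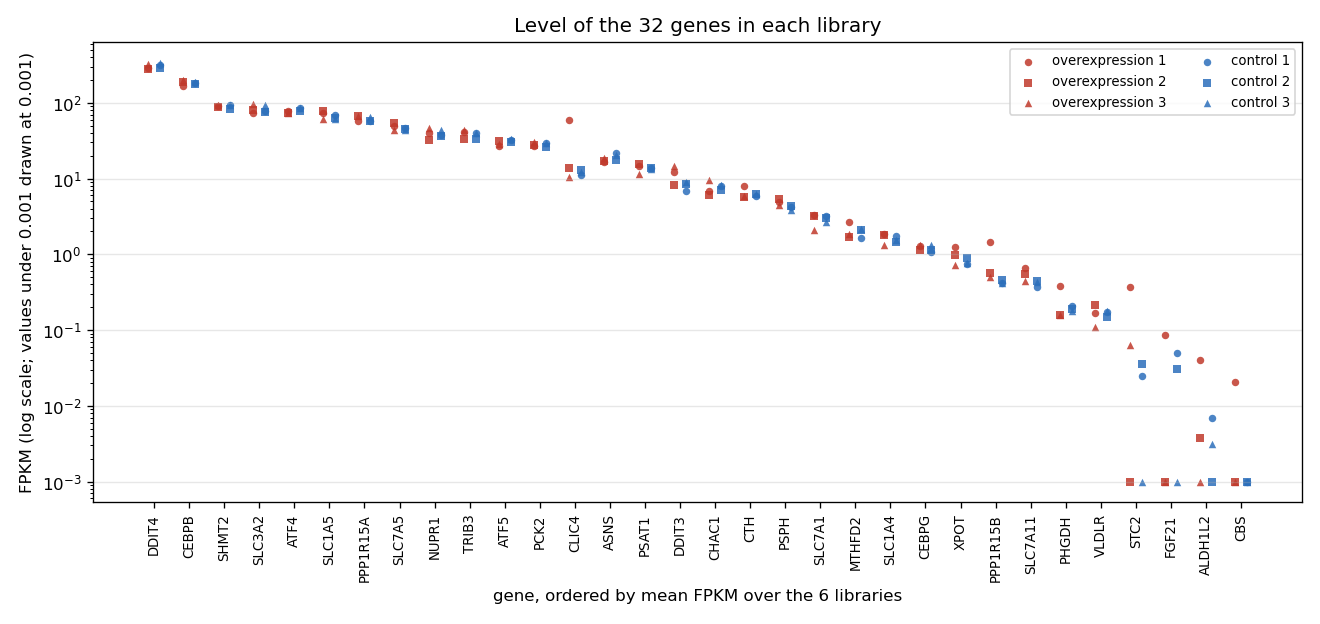
FPKM (log axis) of the 32 genes in each library, ordered by the mean over the 6 libraries, with overexpression libraries in red on the left of each pair and control libraries in blue on the right, and values under 0.001 drawn at 0.001. Most points of a gene lie on top of each other, while overexpression 1 stands above the others for CLIC4 (59.7 FPKM), PPP1R15B (1.48 FPKM) and STC2 (0.374 FPKM).

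Of the transcription factors, ATF4 itself (ENSG00000128272, hg38 chromosome 22, 39519695 to 39522683) had 78.2, 72.6 and 72.9 FPKM in overexpressing cells, against 86.3, 77.4 and 84.5 FPKM in control cells. Means were 74.6 ± 3.14 FPKM in overexpressing and 82.8 ± 4.70 FPKM in control cells (SD, n = 3 each), and the highest overexpression library lay above the lowest control. Its log2 fold change was -0.19 (SE 0.10, 95% interval -0.42 to 0.03, edgeR adjusted p 0.994), and -0.21 without overexpression 1. An interval of this width excludes neither a fall to 0.747 of the control level nor no difference. ATF5, a related factor also translated under stress, had 27.0, 31.7 and 28.7 FPKM in overexpressing against 31.8, 29.9 and 32.8 FPKM in control cells, a log2 of -0.16 (SE 0.10), or -0.09 without overexpression 1.

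DDIT3 encodes CHOP, the factor that turns a lasting stress response towards cell death. It had 12.2, 8.16 and 14.5 FPKM in overexpressing cells, against 6.81, 8.40 and 9.13 FPKM in control cells. Means were 11.6 ± 3.19 FPKM in overexpressing and 8.11 ± 1.19 FPKM in control cells (SD, n = 3 each). Overexpression 1 and 3 lay above every control, while overexpression 2 lay within the controls. The log2 fold change was 0.49 (SE 0.26, 95% interval -0.13 to 1.10, edgeR adjusted p 0.994). It was 0.47 without overexpression 1, 0.72 without overexpression 2 and 0.22 without overexpression 3, so the size of the value rests on which library is kept. DDIT3 overlaps MARS1 and MBD6 on the opposite strand, with 7043 to 9858 and 725 to 1007 counts against its own 528 to 1485, and the counting strand is not given in the sources used here.

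CEBPB, CEBPG and NUPR1 differed by less than the spread between libraries. CEBPB had 164, 186 and 198 FPKM in overexpressing and 181, 177 and 189 FPKM in control cells. CEBPG, a partner of ATF4 in the dimer, had 1.29, 1.13 and 1.34 FPKM in overexpressing and 1.06, 1.14 and 1.33 FPKM in control cells. NUPR1, a small stress-induced chromatin protein, had 39.9, 32.1 and 46.8 FPKM in overexpressing and 37.5, 36.6 and 43.7 FPKM in control cells. For all 3 of these genes the groups overlapped and the log2 fold change lay between -0.03 and 0.04; without overexpression 1 CEBPB was at 0.05, CEBPG at 0.05 and NUPR1 at -0.0036.

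PPP1R15A and PPP1R15B are the regulatory subunits that direct protein phosphatase 1 to eIF2; PPP1R15A is induced by stress and PPP1R15B is constitutive. PPP1R15A had 57.7, 66.3 and 67.4 FPKM in overexpressing and 56.6, 57.5 and 65.2 FPKM in control cells, a log2 of 0.05 (SE 0.13), or 0.14 without overexpression 1. PPP1R15B (ENSG00000158615, chromosome 1, 204396492 to 204411887) was far lower, with 1.48, 0.570 and 0.509 FPKM in overexpressing and 0.420, 0.462 and 0.412 FPKM in control cells. Every overexpression library of PPP1R15B lay above every control, as was the case for 2 of the 29 genes, the other being PSPH; groups did not overlap for 8.22% of all genes tested. The log2 value was 0.92 (SE 0.39, 95% interval 0.01 to 1.82, unadjusted p 0.0479 and adjusted p 0.994 by edgeR), and 0.29 (95% interval -0.09 to 0.68) without overexpression 1. In library 1 the fibroblast markers were at 151 CPM, and PPP1R15B was 3.11 times the mean of the other 5 libraries. The part of the fibroblast signal in this value was not tested. A row without a symbol, ENSG00000288934, overlaps PPP1R15B on the opposite strand. It had 4, 15 and 81 counts in overexpressing and 18, 28 and 79 in control cells. PPP1R15B itself had 1088, 342 and 375 counts in overexpressing and 233, 291 and 315 in control cells.

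The other effectors varied more among libraries of a group than between the groups. TRIB3, a pseudokinase that restrains ATF4 and CHOP, had 41.8, 32.9 and 44.0 FPKM in overexpressing and 40.4, 33.0 and 39.9 FPKM in control cells. CHAC1, which degrades glutathione, had 6.81, 6.08 and 9.67 FPKM in overexpressing and 7.89, 6.99 and 8.28 FPKM in control cells. For CHAC1 the overexpression libraries reached beyond the controls on both sides, and for TRIB3 the groups overlapped. DDIT4 had 287, 283 and 327 FPKM in overexpressing and 312, 284 and 332 FPKM in control cells, and its groups also overlapped. The log2 values of TRIB3, CHAC1 and DDIT4 were 0.03 (SE 0.17), -0.06 (SE 0.23) and -0.09 (SE 0.14), and 0.01, 0.02 and -0.04 without overexpression 1. Medians of the log2 CPM of the 5 effectors, both PPP1R15 genes included, relative to the control mean were -0.14, -0.25 and 0.30 in overexpression 1, 2 and 3, and 0.02, -0.16 and 0.14 in control 1, 2 and 3. Overexpression 3 exceeded overexpression 2 by 1.77 times for DDIT3, 1.59 times for CHAC1, 1.46 times for NUPR1 and 1.34 times for TRIB3, examples chosen after their values were seen. VLDLR, SLC7A1 and XPOT went the other way, with overexpression 3 at 0.515, 0.668 and 0.720 of overexpression 2. Overexpression 3 was the higher of this pair of libraries for 16 of the 29 genes and the lower for 13, where it was the higher for 31.6% of all genes tested. Across the 29 tested genes the range of FPKM among the overexpression libraries was larger than the difference between the group means for 27, where this held for 91.4% of all genes tested.

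**Figure D2:**
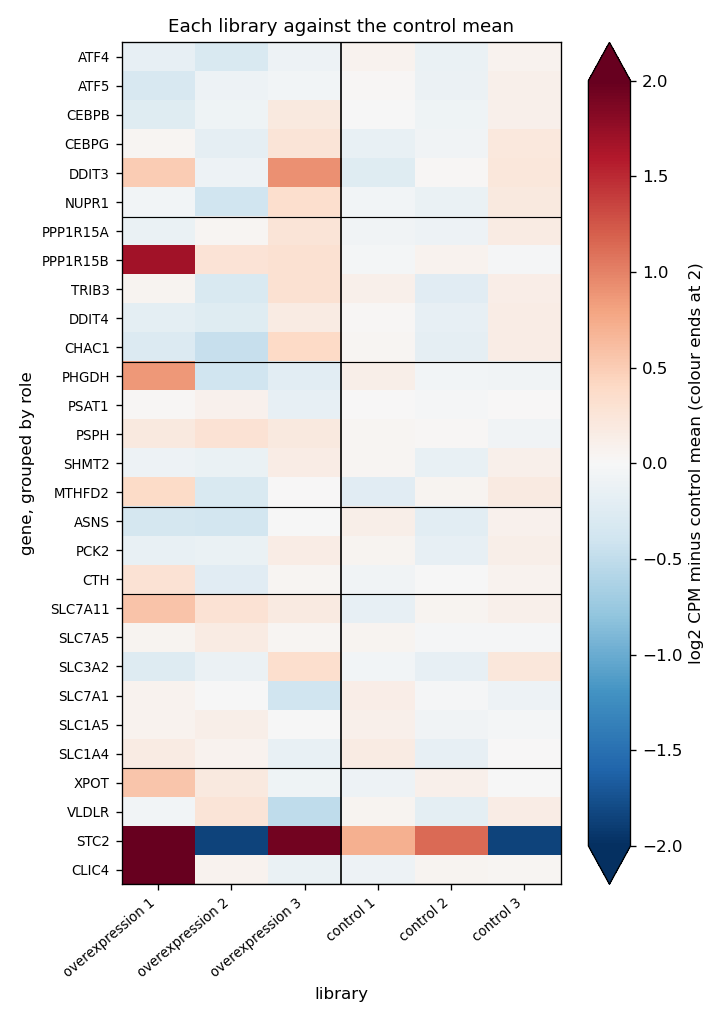
Log2 CPM of the 29 tested genes (rows, grouped by role) in each library (columns, overexpression left of control) minus the mean of the 3 controls, with red above and blue below and the colour ending at 2. Overexpression 1 is reddest for STC2, CLIC4 and PPP1R15B, STC2 runs from blue to red within each group, and overexpression 2 and 3 differ in colour for CHAC1, DDIT3, TRIB3 and NUPR1.

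The enzymes that make serine and use it for one-carbon units were expressed unequally, and their groups were close. PHGDH, which takes the first step from glycolysis to serine, was low, with 0.376, 0.157 and 0.157 FPKM in overexpressing and 0.206, 0.190 and 0.179 FPKM in control cells. Overexpression 1 was the highest library of PHGDH and the other overexpression libraries the lowest, so its log2 fold change of 0.20 (SE 0.36) was -0.32 (SE 0.24) without overexpression 1. PSAT1, the aminotransferase of the next step, had 14.7, 15.7 and 11.6 FPKM in overexpressing and 13.7, 13.8 and 13.3 FPKM in control cells, a log2 of -0.01 (SE 0.10), or -0.03 without overexpression 1.

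PSPH, the phosphatase that completes serine synthesis, had 4.97, 5.44 and 4.43 FPKM in overexpressing cells, against 4.20, 4.28 and 3.80 FPKM in control cells. All 3 overexpression libraries lay above all controls. The log2 fold change was 0.22 (SE 0.12, 95% interval -0.06 to 0.51, edgeR adjusted p 0.994), and 0.24 without overexpression 1. PSPHP1, a pseudogene copy of PSPH with 157 to 252 counts in overexpressing and 129 to 238 in control cells, could take a share of its reads.

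In mitochondria, SHMT2 splits serine into glycine and a one-carbon unit and MTHFD2 oxidises that unit. SHMT2 had 89.4, 88.9 and 94.3 FPKM in overexpressing and 92.4, 83.7 and 93.6 FPKM in control cells, a log2 of -0.03 (SE 0.11), or 0.0041 without overexpression 1. MTHFD2 had 2.69, 1.71 and 1.84 FPKM in overexpressing and 1.65, 2.09 and 2.13 FPKM in control cells, a log2 of 0.04 (SE 0.20) that was -0.16 without overexpression 1. ALDH1L2, the mitochondrial enzyme that releases the unit as carbon dioxide, was near 0 throughout: it had 32, 3 and 1 counts in overexpressing and 4, 0 and 3 counts in control cells.

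Asparagine synthetase, ASNS, is the target by which ATF4 activity is often read. ASNS (ENSG00000070669, chromosome 7, 97851677 to 97872408) had 16.6, 16.8 and 18.9 FPKM in overexpressing cells, against 21.7, 17.8 and 20.7 FPKM in control cells. The groups overlapped, and the log2 fold change of -0.24 (SE 0.14, 95% interval -0.56 to 0.08, edgeR adjusted p 0.994) was the lowest of the 29; it was -0.19 without overexpression 1. A row without a symbol, ENSG00000284707 (97851688 to 97972985), covers ASNS on the same strand and can share its reads. It had 3154, 2458 and 2028 counts in overexpressing and 1487, 1617 and 2081 counts in control cells, a log2 of 0.42 (SE 0.14, unadjusted p 0.0198 and adjusted p 0.994 by edgeR), or 0.32 without overexpression 1. ASNS had 6418, 5275 and 7275 counts in overexpressing and 6307, 5839 and 8262 counts in control cells. For the sum of both rows the mean log2 CPM differed by -0.08 between overexpressing and control cells, and by -0.06 without overexpression 1. Whether reads of ASNS were counted in the other row was not tested.

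The other amino acid enzymes were close between groups. PCK2, the mitochondrial enzyme that makes phosphoenolpyruvate, had 27.2, 28.0 and 29.9 FPKM in overexpressing and 29.3, 26.0 and 29.9 FPKM in control cells, a log2 of -0.04 (SE 0.12), or 0.0056 without overexpression 1. CTH, which makes cysteine from cystathionine, had 7.94, 5.66 and 5.95 FPKM in overexpressing and 5.81, 6.24 and 6.23 FPKM in control cells, a log2 of 0.05 that was -0.09 without overexpression 1. CBS, which makes cystathionine, was listed at 0 in 5 libraries and had 12 counts in overexpression 1. A near-identical annotated copy of this gene could make even that count uncertain, but a search by name found no row for the copy.

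The transporters that ATF4 controls work in part as pairs. SLC3A2 is the heavy chain that carries SLC7A5, the light chain for large neutral amino acids, or SLC7A11, the light chain of the cystine and glutamate exchanger. SLC3A2 had 72.3, 81.3 and 97.7 FPKM in overexpressing and 78.0, 74.8 and 92.6 FPKM in control cells. SLC7A5 had 49.6, 54.8 and 43.8 FPKM in overexpressing and 46.5, 45.6 and 43.2 FPKM in control cells. Both overlapped between groups, and SLC7A5 had the smallest SE of the 29 genes, a log2 of 0.08 (SE 0.08) with 95% limits of -0.10 and 0.27. Without overexpression 1 SLC3A2 was at 0.11, against -0.0011 with all libraries, and SLC7A5 at 0.10. SLC7A11 stood far below its heavy chain in level, with 0.664, 0.555 and 0.449 FPKM in overexpressing and 0.373, 0.449 and 0.436 FPKM in control cells. Its log2 fold change was 0.35 (SE 0.19, 95% interval -0.09 to 0.79, edgeR adjusted p 0.994), or 0.23 without overexpression 1 and 0.04 with a correction of each library for GC content; the antisense SLC7A11-AS1 had 192 to 206 counts in overexpressing and 127 to 196 in control cells, against 341 to 505 and 214 to 344 for SLC7A11.

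The remaining transporters overlapped as well. SLC1A5, which imports glutamine, had 73.2, 76.9 and 61.6 FPKM in overexpressing and 70.0, 63.9 and 61.9 FPKM in control cells. SLC7A1, for arginine and other cationic amino acids, had 3.30, 3.17 and 2.12 FPKM in overexpressing and 3.22, 2.98 and 2.66 FPKM in control cells. SLC1A4, for alanine, serine and cysteine, had 1.87, 1.77 and 1.34 FPKM in overexpressing and 1.75, 1.43 and 1.52 FPKM in control cells. For these genes log2 fold changes were 0.06 (SE 0.09), -0.10 (SE 0.15) and 0.03 (SE 0.16), or 0.05, -0.20 and -0.05 without overexpression 1, and library 3 was the lowest overexpression library of each.

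Among the last 5 genes overexpression 1 decided several values. CLIC4 (ENSG00000169504, chromosome 1, 24745382 to 24844321), an intracellular chloride channel family protein, had 59.7, 13.9 and 10.5 FPKM in overexpressing cells, against 11.3, 13.0 and 12.2 FPKM in control cells. Overexpression 1 was 4.91 times the mean of the other 5 libraries, while overexpression 2 and 3 stood just above and just below the controls. The log2 fold change was 1.13 (SE 0.59, edgeR adjusted p 0.994) and -0.03 (SE 0.12, 95% interval -0.29 to 0.24) without overexpression 1. The part of the fibroblast markers of library 1 in the values of CLIC4, STC2 and PHGDH was not tested. STC2, a secreted glycoprotein, had 151, 0 and 26 counts in overexpressing and 8, 13 and 0 counts in control cells; its log2 of 2.75 (SE 1.58) became 0.69 (SE 1.58) without overexpression 1. XPOT, which exports tRNA from the nucleus, had 1.25, 0.992 and 0.714 FPKM in overexpressing and 0.744, 0.881 and 0.772 FPKM in control cells, a log2 of 0.25 (SE 0.20) or 0.06 without overexpression 1.

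VLDLR, a lipoprotein receptor, had 0.170, 0.216 and 0.111 FPKM in overexpressing and 0.172, 0.146 and 0.179 FPKM in control cells, a log2 of -0.07 (SE 0.25), or -0.08 without overexpression 1. FGF21, a hormone secreted under metabolic stress, had 10, 0 and 0 counts in overexpressing and 4, 3 and 0 counts in control cells, too few to compare.

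**Figure D3:**
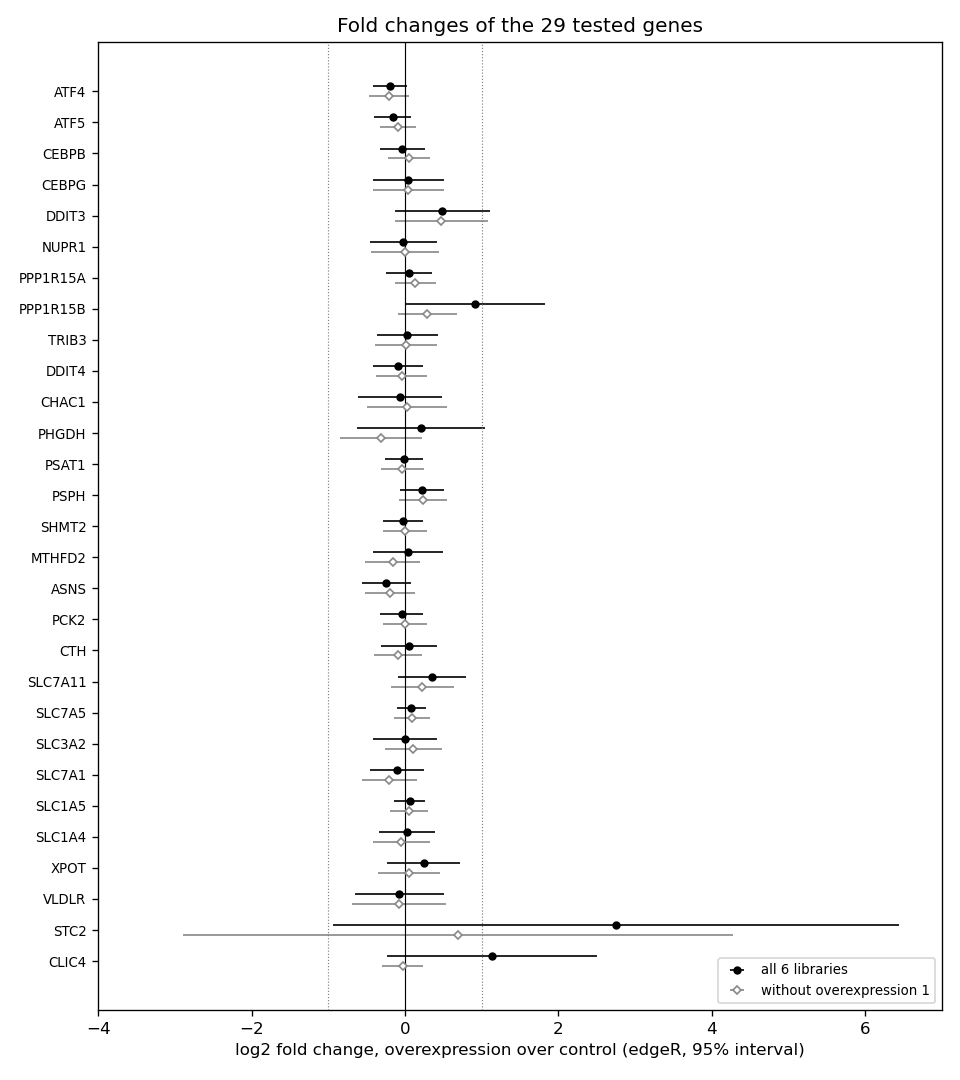
Log2 fold change (overexpression over control) of the 29 tested genes with its 95% interval from edgeR, in black with all 6 libraries and in grey without overexpression 1, with dotted lines at 2-fold. Intervals include 0 for all genes but PPP1R15B with all libraries, and without overexpression 1 CLIC4 moves to -0.03 and PPP1R15B to 0.29.

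Overexpression 1 was at least 2 times the mean of the other 5 libraries for 4 of the 29 tested genes, PPP1R15B, PHGDH, STC2 and CLIC4, against 10.5% of all genes tested. It was the highest of the 6 libraries for 10 of the 29, against 30.9% of all genes. Across the 29 genes its deviation from the other libraries, in log2 CPM, had a Spearman rho of -0.62 with the GC content of the longest annotated transcript, and across 15338 genes with a known GC content rho was -0.41; these are descriptions across genes of the same libraries, and genes are not independent replicates. The 9 genes under 45% GC had a median deviation of 0.44 in overexpression 1, 8 of them above 0, and the 20 others a median of -0.07, with 9 above 0. Over all genes tested the corresponding medians were 0.36 and -0.05. STC2 and PHGDH, at 51.7% and 52.3% GC, deviated upwards outside this relation. Other libraries deviated with GC content too. Over the 29 genes rho was 0.46 in overexpression 3, 0.46 in control 1 and 0.29 in control 3. It was -0.10 in overexpression 2 and -0.08 in control 2. Each library is set against the mean of the other 5, which for these holds overexpression 1. With a GC correction of each library, CLIC4 had a log2 of 0.69, PPP1R15B of 0.80, XPOT of 0.08 and MTHFD2 of -0.095.

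**Figure D4:**
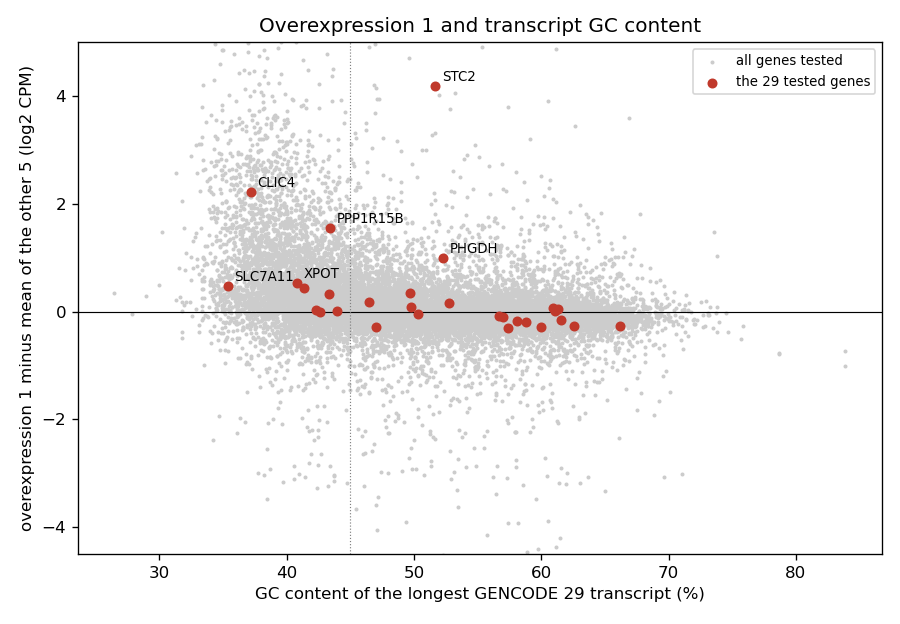
Log2 CPM of overexpression 1 minus the mean of the other 5 libraries (vertical axis) against the GC content of the longest GENCODE 29 transcript in percent (horizontal axis), for the 29 tested genes in red and all tested genes with a known GC content in grey; 22 grey points lie beyond the axis, and the dotted line marks 45% GC. The red points lie lower at high GC, as the grey cloud does, with CLIC4 at 2.22 and 37.2% GC, and STC2 stands apart at 4.19.

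Without overexpression 1, 0 of the 29 genes passed edgeR at an adjusted p under 0.05 and 0 had an unadjusted p under 0.05, against 0.0247% and 2.89% of all 16213 genes tested; DESeq2 was not run on those 5 libraries. Of the 29, 16 had a log2 above 0, against 51.6% of all genes. Groups of 2 and 3 libraries did not overlap for 15.5% of all genes, and for 5 of the genes here: ATF4 and PHGDH were lower, and PPP1R15A, PPP1R15B and PSPH were higher, in both remaining overexpression libraries than in every control. Leaving out overexpression 2 gave an unadjusted p under 0.05 for 4 of 29 genes (DDIT3, PPP1R15B, STC2 and CLIC4), against 6.75% of all genes, and 21 of the 29 had a log2 above 0, against 55.8%. Leaving out overexpression 3 gave 4 (ATF4, ASNS, PPP1R15B and CLIC4), against 11.3%, and 16 had a log2 above 0, against 53.3%. After adjustment 0 of the 29 passed in either case, against 0.0121% of all genes without overexpression 2 and 0% without overexpression 3.

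The genes upstream of ATF4 were read from a list of eIF2 kinases and their inputs, and 0 of 8 passed edgeR at an adjusted p under 0.05 or had an unadjusted p under 0.05; 5 of the 8 log2 values were above 0, against 54.8% of all genes. PKR, the kinase that senses double-stranded RNA and the product of EIF2AK2, had 1.87, 0.799 and 0.409 FPKM in overexpressing and 0.451, 0.474 and 0.514 FPKM in control cells, with a log2 of 1.02 (SE 0.47) that was 0.28 without overexpression 1. The highest and the lowest of the 6 libraries were both overexpression libraries. EIF2AK1, the heme-regulated kinase, had a log2 of -0.03 (SE 0.14), EIF2AK3, the kinase PERK of the endoplasmic reticulum, 0.18 (SE 0.29), and EIF2AK4, the amino acid sensor GCN2, 0.28 (SE 0.25). Without overexpression 1 these were -0.06, 0.23 and 0.16. GCN1 and IMPACT, the activator and the inhibitor of GCN2, were at -0.04 (SE 0.14) and 0.16 (SE 0.27) on the same scale. OMA1 and DELE1, which relay mitochondrial stress, had 0.04 (SE 0.19) and -0.12 (SE 0.14). Without overexpression 1 GCN1 was at -0.08, IMPACT at -0.02, OMA1 at 0.11 and DELE1 at -0.18.

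Of the subunits of eIF2 and of its exchange factor eIF2B, 4 of 8 had a log2 above 0 and 1 had an unadjusted p under 0.05, against 54.8% and 3.83% of all genes. With upper-quartile scaling 2 were above 0 and with RLE scaling 3, for which the 54.8% is not the background. The gene with an unadjusted p under 0.05 was EIF2S1, which encodes the subunit that the kinases phosphorylate. EIF2S1 had 18.8, 15.9 and 13.1 FPKM in overexpressing and 12.0, 13.5 and 11.9 FPKM in control cells. The log2 of EIF2S1 was 0.31 (SE 0.11, unadjusted p 0.0274 and adjusted p 0.994 by edgeR), 0.19 without overexpression 1 and 0.10 with the GC correction. EIF2S2 and EIF2S3, the other eIF2 subunits, were at 0.01 (SE 0.19) and 0.01 (SE 0.13), or 0.05 and -0.01 without overexpression 1. The subunits of eIF2B lay between -0.12 for EIF2B1 and 0.04 for EIF2B4, with EIF2B2 at -0.01, EIF2B3 at -0.07 and EIF2B5 at -0.11. Without overexpression 1 EIF2B1 was at -0.12, EIF2B2 at 0.02, EIF2B3 at 0.05, EIF2B4 at 0.15 and EIF2B5 at -0.0025.

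Other genes tied to the response were read from 3 further lists. Of all genes tested, 54.8% had a log2 above 0 and 3.83% an unadjusted p under 0.05 by edgeR, to be set beside their counts. Both shares are from the main TMM scaling and are not the background of counts given for another scaling. Of 10 partners and early factors, 2 had a log2 above 0 and 0 an unadjusted p under 0.05; the smallest p-values belonged to NFE2L2, at 0.55 (SE 0.38) or -0.07 without overexpression 1, ATF3, at -0.17 (SE 0.12) or -0.09, and BATF3, at -0.26 (SE 0.21) or -0.21, the second value again without overexpression 1. The value furthest from 0 in that list was that of CEBPA, at -1.07 (SE 0.97), or -1.28 without overexpression 1, with 0 to 0.127 FPKM in overexpressing and 0.108 to 0.195 FPKM in control cells. Of 25 further amino acid and tRNA charging genes, 10 were above 0 (8 with upper-quartile scaling) and 15 below, with a median of -0.02 and 0 at an unadjusted p under 0.05. SLC6A9, a glycine transporter, had 9.18, 9.39 and 9.69 FPKM in overexpressing and 10.8, 10.5 and 11.2 FPKM in control cells, a log2 of -0.24 (SE 0.10, adjusted p 0.994 by edgeR), or -0.20 without overexpression 1. The groups of SLC6A9 did not overlap, which held for 1 of the 25 genes and for 8.22% of all genes tested. CARS1 and YARS1, the cysteine and tyrosine tRNA synthetases, stood at -0.14 (SE 0.08) and -0.15 (SE 0.08), or -0.13 and -0.12 without overexpression 1. Overexpression 1 was at least 2 times the other libraries' mean for 3 of the 25: BCAT1, SLC38A2 and NARS1, named with CEBPA after their values were seen. BCAT1, an aminotransferase for branched-chain amino acids, was at 0.96 (SE 0.53), the amino acid transporter SLC38A2 at 0.79 (SE 0.49) and NARS1, the asparagine tRNA synthetase, at 0.62 (SE 0.42). Without overexpression 1 they were at -0.04, -0.11 and -0.11. Of 6 tested genes linked to CHOP, 4 were above 0, 2 with upper-quartile and 3 with RLE scaling. ERO1A, an oxidase of the endoplasmic reticulum, had 0.29 (SE 0.16), DNAJC3, an inhibitor of eIF2 kinases, 0.44 (SE 0.31), BCL2L11 0.01, HERPUD1 0.00, BBC3 -0.05 and TNFRSF10B -0.06, while DDIT4L had 4 counts in overexpression 1 and 0 elsewhere. Without overexpression 1 ERO1A was at 0.18, DNAJC3 at 0.40, BCL2L11 at 0.14, HERPUD1 at 0.06, BBC3 at 0.04 and TNFRSF10B at -0.07.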

How the data were processed

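Oligo(dT)-selected RNA of 6 libraries was used, 3 per group. Per the submitters' processing notes build hg38 was used with HISAT2 2.0.4, StringTie 1.3.4d, cutadapt 1.9 and edgeR; annotation release and strand setting are not given in the sources used here. The authors deposited expected counts, unscaled whole numbers per gene, and FPKM values. Levels, means and SDs use the deposited FPKM. Rounded counts were tested with edgeR 4.0.16 in R 4.3.3: TMM scaling, filterByExpr (minimum count 10), group as the only term, 2-sided quasi-likelihood test, Benjamini-Hochberg adjustment over all 15951 genes that passed, threshold 0.05. The common dispersion was 0.0943. Standard errors and intervals come from this fit; the prior count affects the fold change of low genes such as STC2. The genes and lists were chosen with earlier results of these data known. All 32 genes are named; of companion lists, all genes of lists of 8 or fewer and otherwise the 3 with the smallest p. Alternatives used RLE or upper-quartile scaling, other filters, DESeq2 1.42.0, limma 3.58.1 on log2(FPKM + 1) or log2(FPKM + 0.1), counts divided by 4, a replicate block and each library left out. A GC offset (lowess curve per library, GENCODE 29 transcripts, 96.2% of genes) was chosen after seeing the data. The fits were tested on simulated data.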

Additional observations from a re-analysis of the deposited data

How the results depend on the processing

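In 17 alternatives none of the 29 genes passed after adjustment; the smallest adjusted p was 0.434. The sign of the log2 fold change held wherever the gene was tested for 12 of the 29 (ATF4, ATF5, DDIT3, PPP1R15B, DDIT4, PSPH, ASNS, SLC7A11, SLC7A5, SLC1A5, XPOT and STC2). It changed in at least 1 alternative for 17, of which 16 lay within 0.25 of 0, the exception being CLIC4. With upper-quartile scaling TRIB3 had -0.0033, MTHFD2 -0.0078 and SLC1A4 -0.014. Without a filter SLC3A2 had 0.0026. With a minimum mean of 5 FPKM, NUPR1 had 0.0019, PSAT1 0.024, SHMT2 0.0016 and SLC3A2 0.021. With limma on log2(FPKM + 1), filtered or not, CEBPB had 0.00052, NUPR1 0.00017, PSAT1 0.027, SHMT2 0.016, PCK2 0.00094 and SLC3A2 0.029. With a pseudocount of 0.1 CEBPB had 0.00051, PSAT1 0.028, SHMT2 0.016, PCK2 0.0010 and SLC3A2 0.029. With the GC offset CEBPG had -0.019, SHMT2 0.0072, MTHFD2 -0.095, CTH -0.037, SLC3A2 0.027 and SLC1A4 -0.0089. Leaving out each library in turn gave ranges of -0.16 to 0.054 for CEBPB, -0.074 to 0.16 for CEBPG, -0.37 to 0.10 for CHAC1, -0.028 to 1.504 for CLIC4, -0.091 to 0.18 for CTH, -0.16 to 0.20 for MTHFD2, -0.23 to 0.14 for NUPR1, -0.15 to 0.018 for PCK2, -0.32 to 0.45 for PHGDH, -0.055 to 0.14 for PPP1R15A, -0.059 to 0.056 for PSAT1, -0.12 to 0.030 for SHMT2, -0.047 to 0.11 for SLC1A4, -0.20 to 0.12 for SLC3A2, -0.20 to 0.027 for SLC7A1, -0.12 to 0.18 for TRIB3 and -0.26 to 0.11 for VLDLR. Of the 29 genes, 1 had an unadjusted p under 0.05 with all libraries, 0 to 4 when 1 library was left out and 2 with unfiltered limma. It was 0 with a minimum mean of 5 FPKM and with filtered limma at either pseudocount, where PPP1R15B lay under the filter and was not tested, so these counts say nothing of that gene. Leaving out 1 library gave 0.22 to 0.72 for DDIT3, 0.29 to 1.17 for PPP1R15B, -0.37 to -0.18 for ASNS and 0.69 to 3.505 for STC2. Over all genes 0 passed, against 14 with DESeq2 and 0 to 4 when 1 library was left out. Deviations of same-numbered libraries correlated at -0.03, 0.04 and 0.07. Overexpression 1 correlated best with control 2 (0.06), while overexpression 2 and 3 each correlated best with the control of the same number. Over the 29 genes the median deviation from the other libraries was 0.04, -0.14 and 0.03 in overexpression 1, 2 and 3. In control 1, 2 and 3 it was 0.02, -0.12 and 0.14. The main fit did not pair the samples by replicate number, and whether same-numbered libraries share a source was not tested. With the replicate number as a block 0 genes passed, 1 of the 29 had an unadjusted p under 0.05 and the median was 0.02. The cause of these shifts was not tested. Low counts limit STC2, FGF21, CBS and ALDH1L2 most.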
